A study of Homo sapiens with 6 samples.

Results

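Integrins and laminins are the receptors and the basement membrane proteins through which epithelial cells hold on to their support. The 37 genes described here are protein-coding genes whose symbols name an integrin alpha subunit (18 genes), an integrin beta subunit (8 genes) or a laminin chain (11 genes), out of 27434 rows of the deposited tables. The rule used the symbols alone and no measured value, but it was set with earlier results of these data known. Of the 37, 35 had a row of their own, and ITGB1 and LAMB3 shared a row with a small RNA that lies within the gene (SNORA86 and MIR4260). 20 genes passed the filter on low counts and were tested, and 17 did not.

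RNA-seq was performed on HT-29, a human colorectal cancer cell line, after transfection with an siRNA pool against the lncRNA HOXA-AS3 (HOXA-AS3 KD, siHOXA-AS3), a pool against the lncRNA HOXB-AS3 (HOXB-AS3 KD, siHOXB-AS3) or a non-targeting pool (siNT). All cells received DharmaFECT 4, and RNA was collected 48 h later. Each condition had 2 libraries, called library 1 and library 2 here. The sample labels give 10 nM siRNA and column-purified RNA, whereas the methods of the study give a higher dose and another extraction reagent. One cell line was used, and nothing in the labels says whether the libraries of a condition came from separate cultures, so p-values measure the spread between these libraries, which may be technical.

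An integrin is a pair of an alpha and a beta subunit, and the pairing sets what it binds. ITGB1 pairs with most of the alpha subunits, including the laminin receptors ITGA3 and ITGA6 and the collagen receptors ITGA1 and ITGA2, whereas ITGB4 pairs only with ITGA6 and anchors hemidesmosomes. Laminins are trimers of an alpha, a beta and a gamma chain. LAMA3 and LAMB3 are chains of laminin-332, the laminin of hemidesmosomes and of migrating epithelia, and LAMA5, LAMB1 and LAMC1 form laminin-511, the main laminin of the intestinal basement membrane.

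Total expected counts, the estimated numbers of fragments that RSEM assigns to genes, ranged from 15998518 to 26263938 per library. The siHOXB-AS3 libraries held 67 and 76 counts of HOXB-AS3 against 303 and 213 in siNT (log2 fold change -1.96, SE 0.25, adjusted p = 0.0678 by edgeR's quasi-likelihood test). HOXA-AS3 was scarce, with 38 and 18 counts in siNT and 12 in each siHOXA-AS3 library (log2 fold change -1.09, SE 0.40, adjusted p = 0.711 by the same test). The siHOXA-AS3 libraries stood apart from each other. Across 10819 genes with a mean count of at least 50, the SD of the log2 difference between the libraries of a group was widest in siHOXA-AS3 (0.634, against 0.262 in siNT and 0.196 in siHOXB-AS3), and the siHOXA-AS3 difference followed the GC content of the gene (Pearson r = 0.85 across genes, which are not independent replicates). All 10 markers of colon epithelium exceeded 3 counts in every library. Their summed FPKM (fragments scaled by gene length and library size) was 3899 to 5842. Most of that sum came from KRT18 (1588 to 2558 FPKM) and LGALS4 (745 to 1762 FPKM). CDX2 was scarce, with 0.10 to 0.34 FPKM and at most 20 counts in a library. Of 8 leukocyte markers, 2 or 3 exceeded 3 counts in a library (summed FPKM 10.2 to 17.1, nearly all from CD68), while CD2 and SPI1 were at 0 in every library. The summed FPKM was at most 1.01 for 5 platelet markers, 0.15 for 8 fibroblast and smooth muscle markers and 0.13 for 5 endothelial markers. ITGAL of the leukocyte markers and ITGA2B of the platelet markers are also among the integrin genes described here.

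The results turn mainly on ITGA1, ITGA2, LAMB1 and LAMC1, the integrin genes with the lowest and the laminin genes with the highest log2 fold changes in HOXB-AS3 KD. They were chosen after their values were seen, and their promoter sequences are given. The sequences are from RefSeq (build GRCh38.p14), run 5′ to 3′ on the strand of the gene, and span 250 bases before to 50 after the annotated start. ITGA1 is at chr5:52787666-52787965 (+), ITGA2 at chr5:52989102-52989401 (+), LAMB1 at chr7:108003112-108003411 (-) and LAMC1 at chr1:183023170-183023469 (+). Capitals mark matches on either strand to GGGCGG, the GC box that Sp1 and KLF factors bind.
ITGA1: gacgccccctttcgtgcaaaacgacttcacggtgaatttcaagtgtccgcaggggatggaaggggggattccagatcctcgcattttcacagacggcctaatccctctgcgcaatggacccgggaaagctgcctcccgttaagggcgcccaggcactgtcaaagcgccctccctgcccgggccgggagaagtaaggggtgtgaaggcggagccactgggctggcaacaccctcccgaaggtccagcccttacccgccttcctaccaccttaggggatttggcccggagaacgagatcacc
ITGA2: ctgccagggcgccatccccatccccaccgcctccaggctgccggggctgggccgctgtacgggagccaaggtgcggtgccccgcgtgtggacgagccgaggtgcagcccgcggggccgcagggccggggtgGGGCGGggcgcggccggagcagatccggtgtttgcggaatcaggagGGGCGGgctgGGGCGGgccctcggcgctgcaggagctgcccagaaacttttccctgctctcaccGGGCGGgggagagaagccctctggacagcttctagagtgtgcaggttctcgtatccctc
LAMB1: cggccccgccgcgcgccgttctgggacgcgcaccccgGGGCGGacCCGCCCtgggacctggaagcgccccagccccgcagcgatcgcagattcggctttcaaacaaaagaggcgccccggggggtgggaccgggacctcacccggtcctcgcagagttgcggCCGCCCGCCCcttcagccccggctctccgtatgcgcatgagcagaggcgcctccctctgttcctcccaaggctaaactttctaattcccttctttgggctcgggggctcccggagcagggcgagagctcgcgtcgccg
LAMC1: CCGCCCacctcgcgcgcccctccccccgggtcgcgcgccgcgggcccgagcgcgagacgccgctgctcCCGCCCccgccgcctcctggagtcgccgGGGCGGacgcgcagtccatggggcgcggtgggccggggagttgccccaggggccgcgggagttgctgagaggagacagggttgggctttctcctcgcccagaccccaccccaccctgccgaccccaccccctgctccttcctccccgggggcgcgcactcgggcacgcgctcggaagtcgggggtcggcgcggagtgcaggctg

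The GC box was found 4 times in the ITGA2 window, 4 times in that of LAMB1 (2 of the matches overlap) and 3 times in that of LAMC1, and not in the ITGA1 window. It is a common motif, present in 45.0% of 35116 promoters of this length and in 65.7% of the 14605 that belong to tested genes. The AP-1 motif TGANTCA (7.7% of all promoters), the TEAD motif GGAATG (14.0%) and TTTATNG, a core bound by CDX and posterior HOX proteins (9.7%), were searched on both strands and matched none of the 4 windows. Among the 18 tested genes with a promoter in the table, the AP-1 letters occurred in LAMA3 (2 matches) and in 1 of the LAMB3 promoters. The TEAD letters occurred in 1 of the ITGB1 promoters and in LAMA2. The CDX and posterior HOX letters occurred in 1 promoter each of ITGA6, ITGB5, ITGB7 and LAMB2. ITGA3 and ITGB4 had no entry.

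The siRNA pools are shown because a guide strand can also pair, through its seed, with other transcripts. The sense strands listed by the study are printed 5′ to 3′, and capitals mark the bases 12 to 18 that pair with the seed (bases 2 to 8) of the guide strand. Each sequence matched at least 1 GENCODE transcript of its own target on the sense strand.
HOXA-AS3 siRNA 1: gagacagaauaGCGAACAa
HOXA-AS3 siRNA 2: caauggaagggCCGAACAa
HOXA-AS3 siRNA 3: aggaaaggacaGCGAAGCu
HOXA-AS3 siRNA 4: guagacagggcACUCGUUa
HOXB-AS3 siRNA 1: cgacaaagggaGACAAAGuuu
HOXB-AS3 siRNA 2: gagucgggcauGAAAGAAauu
HOXB-AS3 siRNA 3: gucaaggggugAAGGGAAauu

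Taking the longest annotated 3′ UTR of each gene, 776 of 11171 tested genes (6.9%) held a 7-base site for a seed of the HOXA-AS3 pool, and 5080 (45.5%) held one for the HOXB-AS3 pool. Among the 20 integrin and laminin genes the counts were 1 and 7. ITGA1, whose UTR is 6759 bases long, held 1 site for the HOXA-AS3 pool and 7 for the HOXB-AS3 pool. ITGA6 held 3 sites for the HOXB-AS3 pool, ITGB6 and ITGB8 held 2 each, and ITGA3, LAMB3 and LAMC1 held 1 each. ITGA2 and LAMB1 held none for either pool, with UTRs of 4180 and 148 bases. The part of seed pairing in any difference was not tested.

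HT-29 cells expressed an epithelial set of integrins. The order of the levels below is in FPKM, which is scaled by gene length. In siNT, ITGB1, the shared beta subunit, was highest at 178 ± 24.8 FPKM (SD, n = 2), followed by ITGA6 at 58.2 ± 9.19 and ITGA3 at 31.7 ± 2.45, both laminin receptor subunits. ITGB4, the hemidesmosome subunit (23.3 ± 1.46), ITGAV, the alpha subunit that binds RGD ligands such as vitronectin (22.1 ± 3.64), and LAMB1 (19.8 ± 0.0566) came next. The siNT libraries of ITGB4 and ITGAV overlapped, as did those of ITGAV and LAMB1, of ITGB6 (17.1 ± 1.99) and LAMB3 (16.5 ± 0.580), of ITGA2 (7.58 ± 0.714) and LAMA5 (6.38 ± 1.08), and of LAMA5 and ITGA1 (6.11 ± 0.149). The plot of FPKM by library shows this order and how far the libraries of a condition lie apart.

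**Figure D1:**
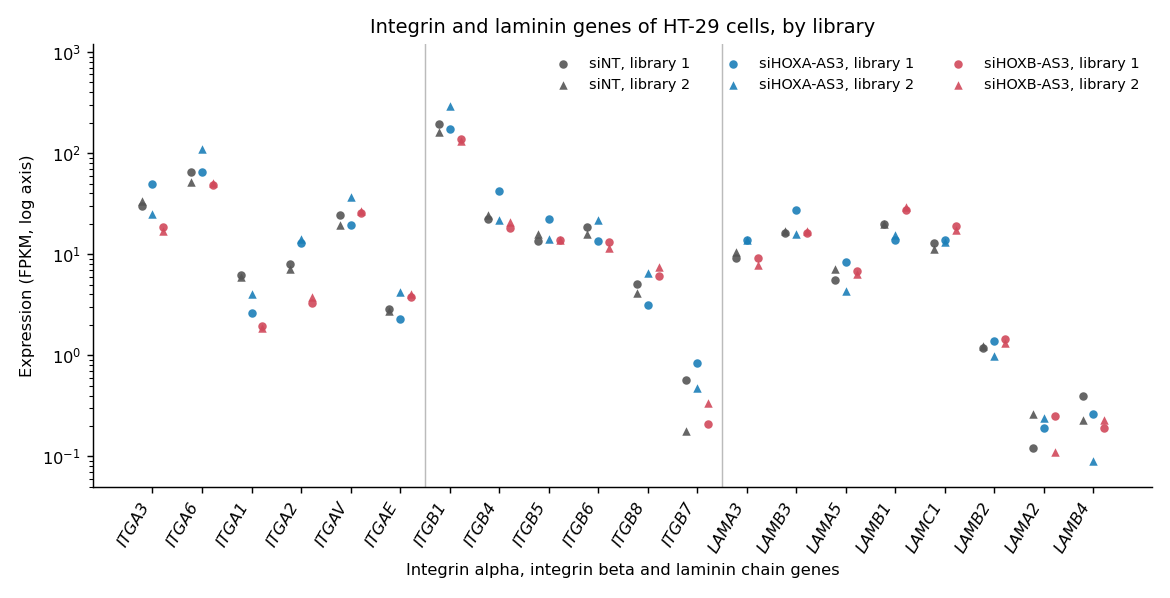
Expression of the 20 tested integrin and laminin genes in each library, in FPKM on a log axis, with integrin alpha genes on the left, integrin beta genes in the middle and laminin chains on the right, and with colours for the siRNA pools and symbols for libraries 1 and 2. ITGB1 (132 to 293 FPKM) was highest in every library, ITGB7, LAMA2 and LAMB4 stayed under 1 FPKM, and the siHOXA-AS3 libraries lie farthest apart for genes such as ITGA3 and ITGB1.

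ITGB1 made up 68.1% to 81.9% of the summed FPKM of the beta subunits, and ITGA6 made up 42.7% to 56.4% of that of the alpha subunits. Of the partners of ITGAV, ITGB6 (siNT 18.52 and 15.71 FPKM) and ITGB5 (13.40 and 15.95 FPKM) were at similar levels and ITGB8 was lower (5.08 and 4.17 FPKM). All 3 chains of laminin-511 were expressed. LAMB3 exceeded LAMA3 by a ratio of 1.15 to 2.13 in FPKM across the 6 libraries. LAMB1 was at 1.67 to 4.56 of LAMA5.

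A total of 15 genes were silent, meaning at most 3 expected counts in every library. ITGA4 (the alpha subunit of the lymphocyte receptor VLA-4), ITGA5 (the fibronectin receptor subunit), ITGA8, ITGA9, ITGAD and LAMA1 (the alpha chain of embryonic laminin-111) had 0 counts in all 6 libraries. A count of 0 allows up to 3 counts, which is 0.0194 to 0.0479 FPKM for these genes in the shallowest library and covers counting error only. The other silent genes had 1 to 6 counts over all libraries. They were the collagen receptor subunits ITGA10 (6 counts) and ITGA11 (2 counts), the platelet subunits ITGA2B (4 counts) and ITGB3 (1 count), the leukocyte subunits ITGAL (1 count), ITGAX (2 counts) and ITGB2 (1 count), LAMA4 (2 counts), a chain of vessel and muscle laminins, and LAMC3 (2 counts).

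ITGAM, a myeloid subunit (14 counts in all, at most 6 in a library), and ITGA7, the muscle laminin receptor (9 counts, at most 4), were near this limit and also too low to test. With a cutoff of a mean FPKM under 0.1 in place of counts, both joined the silent genes, which gave 17. Among the tested genes, ITGB7 (0.18 to 0.83 FPKM), LAMB4 (0.09 to 0.40 FPKM) and LAMA2 (0.11 to 0.26 FPKM) were close to the lower limit. ITGAE, the alpha subunit of the receptor that lymphocytes use to bind E-cadherin, stood out from the other leukocyte integrins with 2.31 to 4.19 FPKM, and its usual partner ITGB7 was 1 of those close to the limit. In GENCODE v29, 42.1% of the exon bases of ITGB7 also lie in exons of ZNF740 on the opposite strand and 6.41% of those of ITGAE in HASPIN, and the strand setting of the counting is not given in the sources used here.

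HOXB-AS3 KD was compared with siNT to see which adhesion genes differ when this lncRNA is reduced. The collagen receptor alpha subunits showed the lowest values relative to siNT. ITGA1 (Entrez 3672, chromosome 5) had 6.21 and 6.0 FPKM in siNT and 1.97 and 1.88 FPKM in HOXB-AS3 KD. The KD libraries were thus near a fold of 0.326 of siNT and did not overlap with it (log2 fold change -1.62, SE 0.26, adjusted p = 0.101). ITGA2 (Entrez 3673) lies near ITGA1, and PELO is the only coding gene that starts between their starts. ITGA2 had 8.08 and 7.07 FPKM in siNT and 3.32 and 3.79 FPKM in HOXB-AS3 KD. Again both KD libraries were below both siNT libraries (log2 fold change -1.05, SE 0.19, adjusted p = 0.101). PELO, which shares 475 exon bases with ITGA1 on the same strand, had 8.59 and 9.99 FPKM in siNT and 10.31 and 10.28 FPKM in HOXB-AS3 KD (log2 fold change 0.20, SE 0.20, adjusted p = 0.758).

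Of the laminin receptors, ITGA3 had 29.94 and 33.40 FPKM in siNT and 18.47 and 17.07 FPKM in HOXB-AS3 KD, with no overlap (log2 fold change -0.79, SE 0.31, adjusted p = 0.365). ITGA6, the most abundant alpha subunit, differed less, with 64.66 and 51.67 FPKM in siNT and 48.53 and 50.25 FPKM in HOXB-AS3 KD (log2 fold change -0.19, SE 0.26). ITGB1, the partner of both, had 195.09 and 160.04 FPKM in siNT and 137.67 and 132.06 FPKM in HOXB-AS3 KD (log2 fold change -0.35, SE 0.26, adjusted p = 0.654). All 4 alpha subunits named so far can pair with ITGB1. ITGB4 had a log2 fold change of -0.21 (SE 0.30).

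The receptors built on ITGAV did not share a direction in HOXB-AS3 KD. ITGAV had 24.64 and 19.49 FPKM in siNT and 25.42 and 26.49 FPKM in the KD (log2 fold change 0.28, SE 0.29). ITGB6, the epithelial subunit that activates latent TGF-beta, had 18.52 and 15.71 FPKM in siNT and 13.06 and 11.62 FPKM in the KD (log2 fold change -0.42, SE 0.26). ITGB8, which also binds latent TGF-beta, had 5.08 and 4.17 FPKM in siNT and 6.12 and 7.43 FPKM in the KD (log2 fold change 0.60, SE 0.34). ITGB5, the vitronectin receptor subunit, gave a log2 fold change of -0.03 (SE 0.24). None of these passed the test.

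Among the laminin chains, the beta and gamma chains of laminin-511 had the highest values relative to siNT. LAMB1 (chromosome 7) had 19.80 and 19.88 FPKM in siNT and 27.26 and 29.12 FPKM in HOXB-AS3 KD (log2 fold change 0.55, SE 0.16, adjusted p = 0.219). LAMC1 (chromosome 1) had 12.92 and 11.35 FPKM in siNT and 18.87 and 17.22 FPKM in the KD (log2 fold change 0.62, SE 0.16, adjusted p = 0.189). The KD libraries of both genes lay above the siNT libraries. LAMA5, the alpha chain that completes the trimer, had 5.61 and 7.14 FPKM in siNT and 6.80 and 6.38 FPKM in the KD (log2 fold change 0.09, SE 0.31). The laminin-332 chains LAMA3 and LAMB3 had log2 fold changes of -0.23 (SE 0.17) and 0.05 (SE 0.26). LAMB4 lies next to LAMB1 on chromosome 7.

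**Figure D2:**
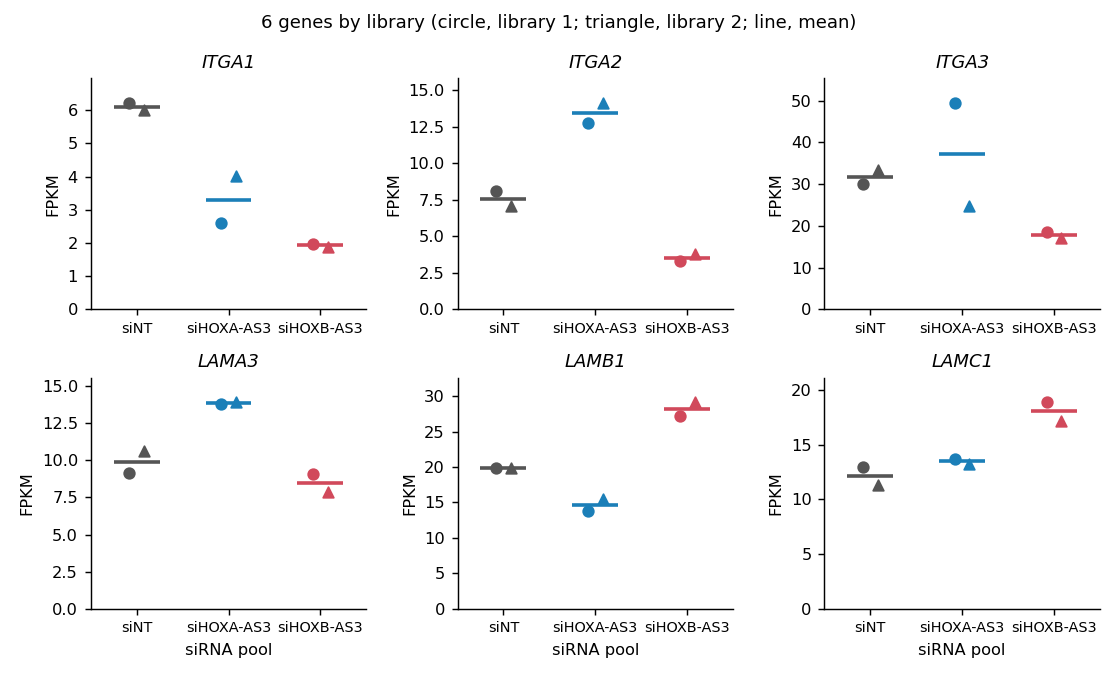
FPKM of ITGA1, ITGA2, ITGA3, LAMA3, LAMB1 and LAMC1 in each library (circle for library 1, triangle for library 2, line for the mean of a condition), with axes that start at 0. ITGA1, ITGA2 and ITGA3 were lowest and LAMB1 and LAMC1 highest in the siHOXB-AS3 libraries, and ITGA2 and LAMA3 were highest in the siHOXA-AS3 libraries.

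By the quasi-likelihood test of edgeR in a model of 6 libraries, adjusted over all genes by the Benjamini-Hochberg method, none of the 20 genes was called in HOXB-AS3 KD at an adjusted p below 0.05, and 0.0614% of all 13034 tested genes were. At an unadjusted p below 0.05 there were 5 (ITGA1, ITGA2 and ITGA3 lower, LAMB1 and LAMC1 higher), against 12.2% of all genes. DESeq2 called 2 of the 19 genes to which it gave an adjusted p, ITGA1 and ITGA2, both lower, where it called 2.71% of all genes. The KD and siNT libraries did not overlap for 6 genes that were higher and 7 that were lower, with 30.9% of all genes on the higher side and 30.9% on the lower side. The median log2 fold change of the 20 genes was -0.11, and that of all tested genes was -0.01.

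The count of calls depended on which libraries set the spread. In a model limited to the 2 groups compared, 9 genes were called, against 23.3% of all genes. ITGA1, ITGA2, ITGA3, ITGB1 and ITGB6 were lower and ITGAE, ITGB8, LAMB1 and LAMC1 were higher. With a loess trend on GC content removed from each library, all but ITGAE of these were called (8 genes, against 14.8% of all genes). The latter values were -1.69 for ITGA1 (SE 0.13, adjusted p = 0.000188), -1.11 for ITGA2 (SE 0.16, adjusted p = 0.00294), 0.56 for LAMB1 (SE 0.10, adjusted p = 0.00785) and 0.63 for LAMC1 (SE 0.10, adjusted p = 0.00428), all on the log2 scale. Leaving out siHOXA-AS3 library 1 or library 2 gave 9 calls each, where 22.7% and 22.6% of all genes were called. Each fit that lacked a library of siNT or of siHOXB-AS3 gave 0.

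HOXA-AS3 KD was compared with the same siNT libraries. ITGA1 had 2.60 and 4.01 FPKM in the KD against 6.21 and 6.0 FPKM in siNT (log2 fold change -0.88, SE 0.25, adjusted p = 0.614). ITGA2, in contrast, was higher, with 12.80 and 14.13 FPKM against 8.08 and 7.07 FPKM (log2 fold change 0.84, SE 0.18, adjusted p = 0.484). For both genes the libraries of the conditions did not overlap. The neighbouring collagen receptor genes therefore had log2 fold changes of opposite sign here and of the same sign in HOXB-AS3 KD, and neither was called by edgeR in the model of 6 libraries in either comparison with siNT.

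LAMA3 and LAMB3 had positive log2 fold changes in HOXA-AS3 KD. LAMA3 had 13.81 and 13.91 FPKM against 9.17 and 10.62 FPKM in siNT (log2 fold change 0.55, SE 0.17, adjusted p = 0.641). Its values were higher in each KD library than in each siNT library. LAMB3 overlapped with siNT, with 27.46 and 15.92 FPKM against 16.04 and 16.86 FPKM (log2 fold change 0.41, SE 0.26, adjusted p = 0.948). LAMB1 had 13.79 and 15.52 FPKM against 19.80 and 19.88 FPKM in siNT, without overlap (log2 fold change -0.43, SE 0.16, adjusted p = 0.723), and LAMC1 had a log2 fold change of 0.16 (SE 0.16).

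For other genes the siHOXA-AS3 libraries lay far apart. ITGA3 had 49.41 and 24.83 FPKM, ITGB4 had 41.70 and 21.58 FPKM, and LAMA5 had 8.28 and 4.28 FPKM, on either side of siNT with library 1 the higher. ITGB1 (173.21 and 292.81 FPKM), ITGA6 (64.68 and 108.53 FPKM), ITGAV (19.58 and 36.77 FPKM) and ITGB8 (3.17 and 6.51 FPKM) were higher in library 2. Of these, ITGB8 lay on either side of siNT, and ITGB1 and ITGAV had library 1 within the siNT range and library 2 above it. For ITGA6, library 1 nearly equalled the higher siNT library (64.68 against 64.66 FPKM), and library 2 was above siNT. The transcripts of the first group are rich in GC (60.9% for ITGA3, 63.2% for ITGB4 and 66.4% for LAMA5) and those of the second are poor in it (37.8% for ITGB8 to 42.6% for ITGA6). Among the 17 genes with a mean of at least 1 FPKM, the log2 difference between the siHOXA-AS3 libraries had a Pearson r of 0.87 and a Spearman rho of 0.81 with GC content, as a description of genes that share these libraries. In siNT it was -0.85 and -0.80 over a smaller range (SD 0.21 against 0.73), and in siHOXB-AS3 it was 0.21 and 0.20. The ratio of ITGA6 to ITGB4, the subunits of the hemidesmosome receptor, was 1.55 and 5.03 in the siHOXA-AS3 libraries in FPKM, against 2.91 and 2.13 in siNT and 2.65 and 2.43 in siHOXB-AS3.

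**Figure D3:**
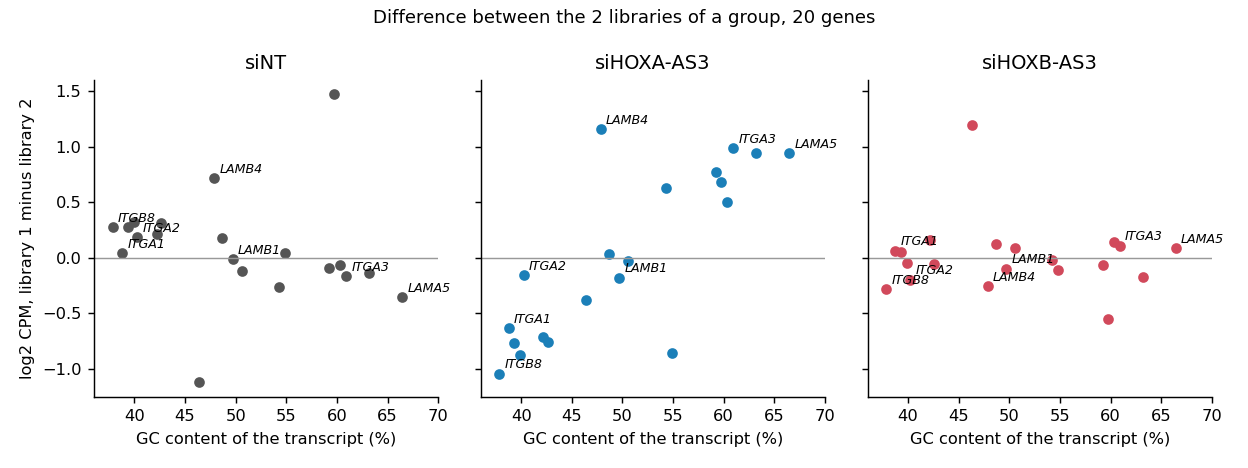
Log2 CPM of library 1 minus that of library 2 for the 20 tested genes against the GC content of their transcripts in percent, with 1 panel for each siRNA pool. In siHOXA-AS3 most GC-poor genes lie below 0 and most GC-rich genes above it (ITGB8 at -1.04, ITGA3 at 0.98), with ITGAE at -0.86 and LAMB4, a gene under 1 FPKM, at 1.15 as exceptions, while in siHOXB-AS3 most points lie near 0.

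None of the 20 genes was called in HOXA-AS3 KD by edgeR's quasi-likelihood test, and 0% of all tested genes were. At an unadjusted p below 0.05 there were 4 (ITGA2 and LAMA3 higher, ITGA1 and LAMB1 lower), against 6.16% of all genes. DESeq2 called ITGA2 alone among the 17 genes to which it gave an adjusted p (adjusted p = 0.0499), where it called 0.534% of all genes. The libraries did not overlap for 4 genes that were higher and 2 that were lower, against 12.5% and 16.1% of all genes. The model of only siNT and siHOXA-AS3 also called 0 of the 20 genes and 0% of all genes. The median log2 fold change of the 20 genes was 0.24, and that of all tested genes was 0.01.

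With the GC trend removed, 5 of the 20 genes were called in HOXA-AS3 KD, against 4.86% of all genes. ITGA1 was lower (log2 fold change -0.99, SE 0.13, adjusted p = 0.00512). ITGA2 (0.80, SE 0.15, adjusted p = 0.0234), ITGA6 (0.52, SE 0.11, adjusted p = 0.0339), LAMA3 (0.61, SE 0.10, adjusted p = 0.013) and LAMB3 (0.42, SE 0.10, adjusted p = 0.0496) were higher. The trend is estimated from these same libraries, and a true difference that follows GC content would be removed with it. Leaving out siHOXA-AS3 library 1 gave 12 calls, against 30.3% of all genes, and leaving out library 2 gave 9, against 17.9% of all genes, without any GC correction. ITGA3 and ITGB8 were called with opposite signs in these fits (log2 fold changes of -0.34 and 0.66 for ITGA3, and of 0.505 and -0.53 for ITGB8). In these fits the lone library was taken to be as variable as the other groups.

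**Figure D4:**
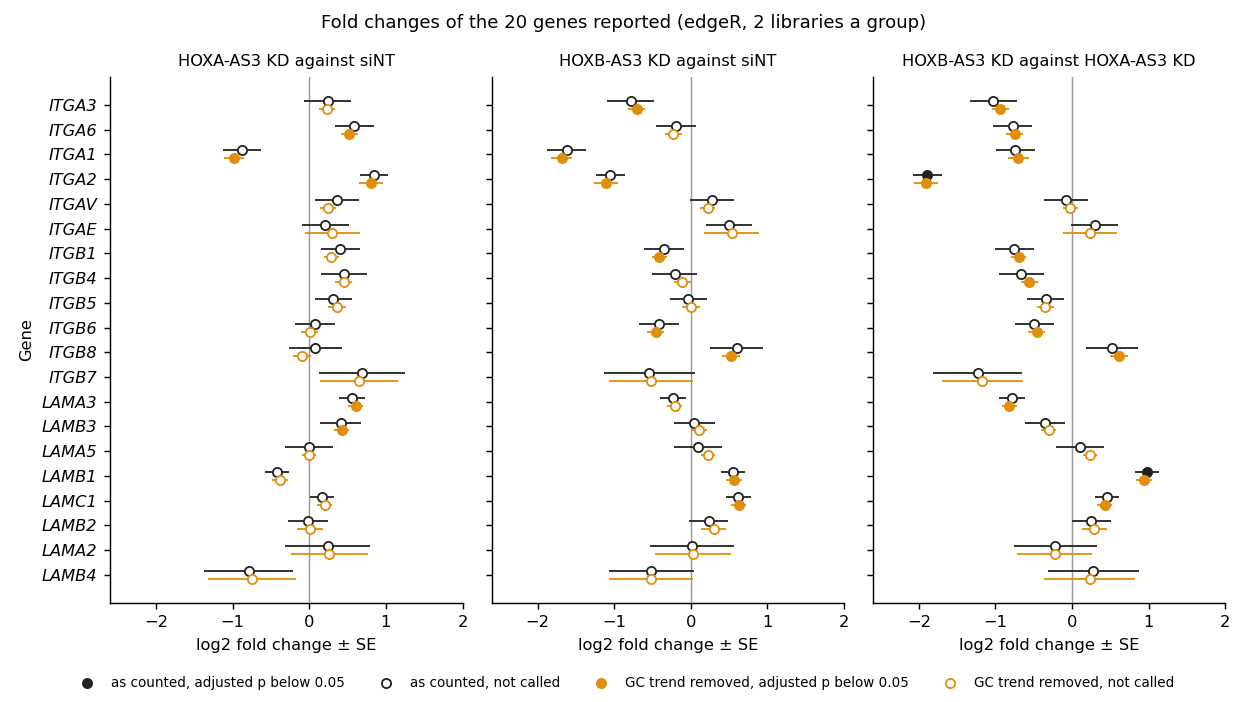
Log2 fold changes with their SE for the 20 tested genes in each comparison, from edgeR on the counts as deposited (black) and with the GC trend removed (orange), with filled points for an adjusted p below 0.05. As counted, ITGA2 (-1.89) and LAMB1 (0.98) were called, both in HOXB-AS3 KD against HOXA-AS3 KD, and with the GC trend removed 5, 8 and 11 genes were called in the 3 panels.

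The knockdowns were then compared with each other. The siNT libraries enter this comparison through the count filter, the scaling of the libraries and the shared estimate of the spread. ITGA2 was lower in HOXB-AS3 KD (3.32 and 3.79 FPKM) than in HOXA-AS3 KD (12.80 and 14.13 FPKM), and the siNT libraries lay between them. Its log2 fold change was -1.89 (SE 0.19, adjusted p = 0.0173 by edgeR's quasi-likelihood test), a fold of 0.270. LAMB1 was higher in HOXB-AS3 KD (27.26 and 29.12 FPKM) than in HOXA-AS3 KD (13.79 and 15.52 FPKM), again with siNT between them (log2 fold change 0.98, SE 0.16, adjusted p = 0.0422, a fold of 1.97). These were the only 2 of the 20 genes called, and 1.57% of all genes were called. DESeq2 also called both (adjusted p = 1.1e-12 for ITGA2 and 0.000678 for LAMB1).

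Other receptors and laminin chains were lower in HOXB-AS3 KD than in HOXA-AS3 KD without passing the test. ITGA3 (18.47 and 17.07 against 49.41 and 24.83 FPKM) had a log2 fold change of -1.03 (SE 0.31, adjusted p = 0.15), and LAMA3 (9.11 and 7.90 against 13.81 and 13.91 FPKM) one of -0.78 (SE 0.17, adjusted p = 0.0789). DESeq2 called these as well, 4 of the 20 genes in all, against 6.14% of all genes. ITGB1 had a log2 fold change of -0.75 (SE 0.26), ITGA6 one of -0.78 (SE 0.26) and ITGA1 one of -0.74 (SE 0.25). LAMC1 had one of 0.46 (SE 0.16). At an unadjusted p below 0.05 there were 8 genes (6 lower and 2 higher), against 18.4% of all genes. The libraries did not overlap for 2 genes that were higher and 9 that were lower, against 22.8% and 22.5% of all genes. The median log2 fold change was -0.35 for the 20 genes and -0.01 for all tested genes.

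The calls of ITGA2 and LAMB1 kept their sign in all 21 alternative analyses, but not their side of the threshold. ITGA2 was called in 15 of the 21 (adjusted p from 1.1e-12 to 0.421) and LAMB1 in 13 (adjusted p from 3.97e-07 to 0.561). With only the siHOXA-AS3 and siHOXB-AS3 libraries in the model, neither was called (adjusted p = 0.0758 and 0.169), and 0.0156% of all genes were. The fits that lacked a library of siNT or of siHOXB-AS3 gave 0 calls each, whereas leaving out siHOXA-AS3 library 1 or library 2 gave 11 and 14 calls, where 37.8% and 36% of all genes were called. ITGAV was called with opposite signs in the latter fits (-0.45 and 0.41). With the GC trend removed, 11 genes were called, against 27.1% of all genes. Of these ITGB8, LAMB1 and LAMC1 were higher, and ITGA1, ITGA2, ITGA3, ITGA6, ITGB1, ITGB4, ITGB6 and LAMA3 were lower.

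Genes that act with integrins and laminins were taken from 4 lists. Unless another model is named, calls are those of edgeR in the model of 6 libraries. Of 33 tested focal adhesion adaptors and kinases, none was called in either KD against siNT by edgeR's quasi-likelihood test, and at an unadjusted p below 0.05 there were 1 in HOXA-AS3 KD and 8 in HOXB-AS3 KD (2 higher and 6 lower), against 6.16% and 12.2% of all genes. DESeq2 called 0 and 3, against 0.534% and 2.71%, and edgeR with the GC trend removed called 2 and 9, against 4.86% and 14.8%. The same shares of all genes stand beside the counts of the other lists, and between the knockdowns the shares were 1.57% by edgeR, 18.4% at an unadjusted p below 0.05 and 6.14% by DESeq2. CAV1, the coat protein of caveolae, had 2.34 and 2.22 FPKM in siNT, 2.49 and 3.53 in HOXA-AS3 KD and 7.51 and 7.43 in HOXB-AS3 KD. It was the 1 gene of this list called between the knockdowns (log2 fold change 1.36, SE 0.23, adjusted p = 0.0468, and 1.76 with an adjusted p of 0.076 in HOXB-AS3 KD against siNT). TNS2, a tensin that links integrins to actin, had 8.24 and 8.41 FPKM in siNT and 3.91 and 3.62 FPKM in HOXB-AS3 KD (log2 fold change -1.10, SE 0.25, adjusted p = 0.152). In HOXA-AS3 KD, the tensin TNS3 (log2 fold change -0.78, SE 0.24) and the PINCH protein LIMS2 (0.81, SE 0.37) had the lowest and the highest values among genes whose libraries did not overlap.

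Of 10 hemidesmosome genes and lateral partners, none was called against siNT, at an unadjusted p below 0.05 there were 0 in HOXA-AS3 KD and 2 in HOXB-AS3 KD (DESeq2 called 0 and 1), and COL17A1 was called between the knockdowns. COL17A1, the transmembrane collagen of hemidesmosomes, had 17.79 and 18.99 FPKM in siNT, 25.60 and 19.43 in HOXA-AS3 KD and 9.14 and 8.92 in HOXB-AS3 KD (log2 fold change between the knockdowns -1.28, SE 0.19, adjusted p = 0.0384, and -0.98 with an adjusted p of 0.114 against siNT). SLC3A2, the heavy chain of CD98 that associates with beta subunits, had a log2 fold change of 0.58 (SE 0.20) in HOXB-AS3 KD. In HOXA-AS3 KD the tetraspanin CD9 had one of -0.13 (SE 0.16) and COL17A1 one of 0.30 (SE 0.19).

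Only 12 of 38 basement membrane genes and integrin ligands had enough counts to test. CCN2, a matricellular integrin ligand, rose in HOXB-AS3 KD, with 38.31 and 52.84 FPKM against 8.88 and 10.11 FPKM in siNT (log2 fold change 2.31, SE 0.24, adjusted p = 0.0492). It was the 1 gene of the list called against siNT, where DESeq2 called 2. At an unadjusted p below 0.05 by edgeR, 1 gene of the list was lower in HOXA-AS3 KD. In HOXB-AS3 KD 3 were higher and 2 lower at that cutoff, and between the knockdowns 4 were higher and 3 lower. Between the knockdowns CCN2 (log2 fold change 2.41, SE 0.24, adjusted p = 0.0173) and the related CCN1 (1.98, SE 0.28, adjusted p = 0.0372) were both higher in HOXB-AS3 KD. In a model of only the siHOXA-AS3 and siHOXB-AS3 libraries, no gene of the 4 lists was called. A model of only siNT and siHOXB-AS3 called 7 focal adhesion genes higher and 7 lower, against 23.3% of all genes. It called 3 higher and 3 lower hemidesmosome genes, and the same numbers of basement membrane genes. With the GC trend removed, HOXB-AS3 KD against siNT gave 3 higher and 3 lower hemidesmosome genes, and 3 higher and 2 lower basement membrane genes. The calls of CAV1, COL17A1 and CCN1, and of CCN2 against siNT, were lost in each of the 4 fits that lacked a library of siNT or of siHOXB-AS3 (adjusted p from 0.105 to 0.538, and from 0.439 to 1 for CCN2 against siNT), and CCN2 was called in 1 of these fits between the knockdowns. CDH1, the E-cadherin that ITGAE binds, and THBS1 (thrombospondin-1) had log2 fold changes of 0.18 (SE 0.15) and -0.60 (SE 0.22) in HOXA-AS3 KD. Of the 6 tested laminin receptors outside the integrins and laminin-cleaving enzymes, none was called in any comparison, and at an unadjusted p below 0.05 there were 0 in HOXA-AS3 KD, 1 in HOXB-AS3 KD and 2 between the knockdowns (DESeq2 called 0, 0 and 1). In HOXB-AS3 KD, 2 genes of this list were called higher with the GC trend removed, and 2 in the model of only siNT and siHOXB-AS3. The laminin receptor BCAM had a log2 fold change of 0.63 (SE 0.21) in HOXB-AS3 KD. The protease BMP1, which processes laminin-332, had one of -0.26 (SE 0.33) in HOXB-AS3 KD. The metalloprotease MMP7 had one of -0.45 (SE 0.25) in HOXA-AS3 KD.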

How the data were processed

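Polyadenylated RNA of 6 HT-29 libraries (SENSE mRNA-Seq) was quantified by the authors with RSEM on RefSeq genes, and the submitters' processing notes name the build hg19. The aligner, the version of RSEM and its strandedness were not given in the sources used here. The authors deposited, for each library, expected counts (estimated fragments per gene, not normalized), TPM and FPKM. FPKM gave levels, and TPM changed 2 ranks in siNT. The methods of the study used DESeq2.

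Expected counts, rounded to whole numbers, were tested with edgeR 4.0.16 under R 4.3.3 (filterByExpr with a minimum count of 10, TMM, robust quasi-likelihood test, Benjamini-Hochberg adjustment over 13034 genes, threshold 0.05) in a model of all 6 libraries with the group as the only term. Fold changes are the first condition named relative to the second, and both knockdowns share the siNT libraries. The SE of an edgeR log2 fold change is its absolute value divided by the square root of the quasi-likelihood F statistic. Groups were taken from the sample labels. Alternatives were DESeq2 1.42.0, limma 3.58.1 on log2(FPKM + 0.1) and log2(FPKM + 1), RLE and total-count scaling, no filter, a mean FPKM of at least 1, a replicate block, only the groups compared, no robust estimation, loess trends (span 0.5) on GC content or length removed, and each library left out. Unrounded counts, the GC trend removed with only the groups compared, and crossed replicate numbers were chosen after seeing the data. The fitting step was tested on simulated data with equal spread in all groups and no GC trend. That test therefore does not cover the wide siHOXA-AS3 pair. GC content came from GENCODE v29 (GRCh38) transcripts for 98.1% of genes tested, and exon overlaps, 3′ UTRs and gene order from GRCh38 annotation, with no coordinates transferred to hg19.

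1 gene is not reported here. From each list of adhesion genes, any called gene is named, and otherwise, for each KD against siNT, the genes with the highest and lowest fold change among those with a mean FPKM of at least 1 and libraries that do not overlap. Members and lists were chosen with earlier results of these data known. Fractional counts, which arise where RSEM divides fragments between genes, occurred for 3 members (ITGA2, ITGB8 and LAMB4).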

Additional observations from a re-analysis of the deposited data

Results flagged for a closer look

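Among the integrin and laminin genes, the effects of the knockdowns differed for a pair of genes by a test of the difference itself, the quasi-likelihood test of edgeR, adjusted over all genes by the Benjamini-Hochberg method. ITGA2 had a log2 fold change of -1.89 in HOXB-AS3 KD relative to HOXA-AS3 KD (adjusted p = 0.0173), with values of -1.05 and 0.84 for the knockdowns relative to siNT. LAMB1 had one of 0.98 (adjusted p = 0.0422), with 0.55 and -0.43 relative to siNT. Each gene differed in opposite directions from siNT in the knockdowns, in both libraries of each.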

How the results depend on the processing

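The number of integrin and laminin genes called was 0 in HOXA-AS3 KD, 0 in HOXB-AS3 KD and 2 between the knockdowns. It became 1, 2 and 4 with DESeq2, 5, 8 and 11 with the GC trend removed, and 1, 12 and 11 with that trend removed and only the groups compared. With only the groups compared it was 9 in HOXB-AS3 KD and 0 between the knockdowns, and with no filter 2 and 4. Limma on either FPKM scale gave 1 between the knockdowns. In each of these settings, where a count changed, the number of all genes called moved in the same direction. These counts alone therefore do not set integrin and laminin genes apart from other genes. Leaving out 1 library gave 0 to 12 calls in HOXA-AS3 KD, 0 to 9 in HOXB-AS3 KD and 0 to 14 between the knockdowns. In 3 cases a gene was called with opposite signs without siHOXA-AS3 library 1 and without library 2, namely ITGA3 (-0.34 and 0.66) and ITGB8 (0.505 and -0.53) in HOXA-AS3 KD and ITGAV (-0.45 and 0.41) between the knockdowns. RLE and total-count scaling, a mean FPKM of at least 1, the length trend, no robust estimation and unrounded counts left the counts at 0, 0 and 2.

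The libraries of a number did not deviate together (correlations of -0.35, -0.14 and 0.15 between groups). The differences within siNT and siHOXA-AS3 followed GC content (Pearson r of -0.58 and 0.85 across genes). These correlations therefore cannot decide whether libraries of a number shared a culture or a batch, which the labels do not give. With the replicate block there were 0 calls in each comparison, 0 between the knockdowns among them, and with the replicate block and the GC trend removed there were 3, 8 and 11. Crossed replicate numbers as a block, with only the groups compared, gave 0 calls in HOXA-AS3 KD and 10 in HOXB-AS3 KD. With these blocks too, where a count changed, the number of all genes called moved in the same direction.

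With 2 libraries a group, the spread rests on few libraries, and the siHOXA-AS3 pair, the widest apart, enters the shared estimate. Whether GC content accounts for a difference in any single gene was not tested. Knockdown of HOXA-AS3 was read from few counts. Depth sets the lower limit for the silent genes.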
